A study of Homo sapiens with 6 samples.

Results

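DNA replication genes code for the proteins that license replication origins, unwind the double helix, copy it and package the copy. A set of 50 such genes was compared between the SEM::EGR3 and SEM::mock lines. Members were chosen by name, as rows of the deposited gene table whose symbol equals a listed replication factor, and all 50 were found among 35410 genes. RNA was measured by MACE-Seq, which reads out only the 3′ end of each polyadenylated transcript, in 3 biological replicates of each line. SEM is an established human proB leukemia line with the KMT2A::AFF1 fusion. SEM::EGR3 carries a doxycycline-inducible EGR3 vector and SEM::mock the empty vector, and both were treated with 1 µg/mL doxycycline for 48 h before RNA was taken. EGR3 codes for a zinc finger transcription factor of the early growth response family.

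Replication starts at sites bound by the origin recognition complex (ORC), onto which CDC6 and CDT1 load the ring-shaped MCM2-7 helicase in G1 phase. In S phase the kinase CDC7 with its partner DBF4 lets CDC45 and GINS join the ring, and DNA polymerases alpha, delta and epsilon then copy the strands behind the open fork. The clamp PCNA holds the polymerases on DNA, the replication factor C (RFC) loads it, RPA covers single strands, and FEN1, DNA2 and LIG1 join the lagging strand fragments. Many of these genes are transcribed at the border of G1 and S phase under control of E2F factors, which are held back by RB1 and its relatives. In B cell precursors, phases of rapid division alternate with phases of rearrangement of the antigen receptor genes.

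Counts over all 35410 genes of the table summed to between 5286115 and 6181388 in SEM::mock and between 7293092 and 15106018 in SEM::EGR3. EGR3 had 8, 10 and 6 counts in the control line, SEM::mock, against 9768, 4952 and 5557 in SEM::EGR3, a log2 fold change of 8.78 ± 0.11 (SE, adjusted p = 1.27e-26). Markers of the labelled cell type went against the label in the control line. Summed over 10 B lineage markers, the level was 2.65 to 5.88 CPM (counts per 1000000 counts) in SEM::mock and 497 to 524 CPM in SEM::EGR3, and 7 of the 10 had at most 3 counts in every SEM::mock library. EBF1 and DNTT were at 0 in all SEM::mock libraries, and PAX5 had 1, 1 and 2 counts there. Erythroid markers were present in both lines, and KLF1 was lower in SEM::EGR3, at 22.2% of the SEM::mock mean. The summed erythroid level was 1107 to 1160 CPM in SEM::mock and 1702 to 1753 CPM in SEM::EGR3, a rise carried by HBA1, and HBB had at most 2 counts in a library. Summed myeloid markers were 291 to 301 against 220 to 223 CPM, T lineage markers 86.9 to 99.2 against 81.3 to 90.1 CPM, and epithelial and fibroblast markers 749 to 782 against 453 to 477 CPM. These sums hold single markers that moved in opposite directions. Among T lineage markers the mean of CD3D was 58.1 CPM in SEM::mock and 6.26 CPM in SEM::EGR3, and that of TRAC 1.21 and 74.7 CPM. In the myeloid list LYZ had means of 155 and 42.7 CPM and CEBPA 12.4 and 127 CPM, and in the epithelial and fibroblast list KRT18 had 318 and 89.7 CPM and COL1A1 3.62 and 43.2 CPM. MTAP, a gene beside CDKN2A on chromosome 9, was read 0, 0 and 1 times in the SEM::mock libraries and 380, 182 and 214 times in those of SEM::EGR3. An effect of EGR3 on the replication genes therefore cannot be told apart from any other difference between these lines, and the part of these marker differences in the values below was not tested.

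All 50 members passed the filter on low counts, with 58 to 6978 counts in a library. At an adjusted p under 0.05 in edgeR's quasi-likelihood test, 34 of them differed between the lines, 13 upward and 21 downward in SEM::EGR3, while 16 missed the threshold. Without normalization factors the calls were split 17 upward and 18 downward. This share of 68.0% is close to that of all 15465 genes tested, of which 68.5% passed, 36.5% higher and 32.0% lower, so the number of calls is no result about replication genes. The changes were small. Log2 fold changes ran from -0.91 for CDC45 to 0.72 for GINS4, with a median of -0.080 against 0.030 over all genes. The median absolute log2 fold change was 0.25 for the members, 0.46 for all genes tested and 0.36 for the 10144 genes with a mean of at least 10 CPM. Only 9 members, 3 higher and 6 lower, passed with a log2 change of 0.5 or more in either direction. Such a change was found for 46.0% of all genes tested and 37.9% of those with a mean of at least 10 CPM. Of the 34 that passed, at an adjusted or an unadjusted p under 0.05, 0 reached 1. That size was reached by 25.2% of all genes tested and 15.3% of those with at least 10 CPM. For any of these genes, up or down, a change in the share of replicating cells and a change in RNA per cell cannot be told apart in bulk libraries.

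In 36 members the 3 libraries of one line did not overlap those of the other, 13 higher and 23 lower in SEM::EGR3, where 70.1% of all genes tested behaved so. Of all 15465 genes tested, 5798 lay higher and 5044 lower without overlap. Of the 10144 genes with a mean of at least 10 CPM these were 3447 and 3890. The members' values summed to 5795, 5606 and 5658 CPM in the SEM::mock libraries and 5182, 5218 and 5244 CPM in the SEM::EGR3 libraries. Every SEM::EGR3 library was below every SEM::mock library in this sum, which weighs abundant genes most. By geometric mean the lines lay closer, at 80.1, 77.5 and 79.2 CPM in SEM::mock and 75.1, 74.8 and 77.2 CPM in SEM::EGR3. Both measures depend on how libraries were scaled. Without normalization factors the median log2 fold change of the members was -0.0021. Of 12 groups by role in replication, 8 held members that passed in both directions, as the plot of fold changes by role shows. Over all genes tested 36.5% were called higher and 32.0% lower, and a group with a single call could not hold both directions. The same count was not made for groups of other genes, so it is no result about these roles.

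**Figure D1:**
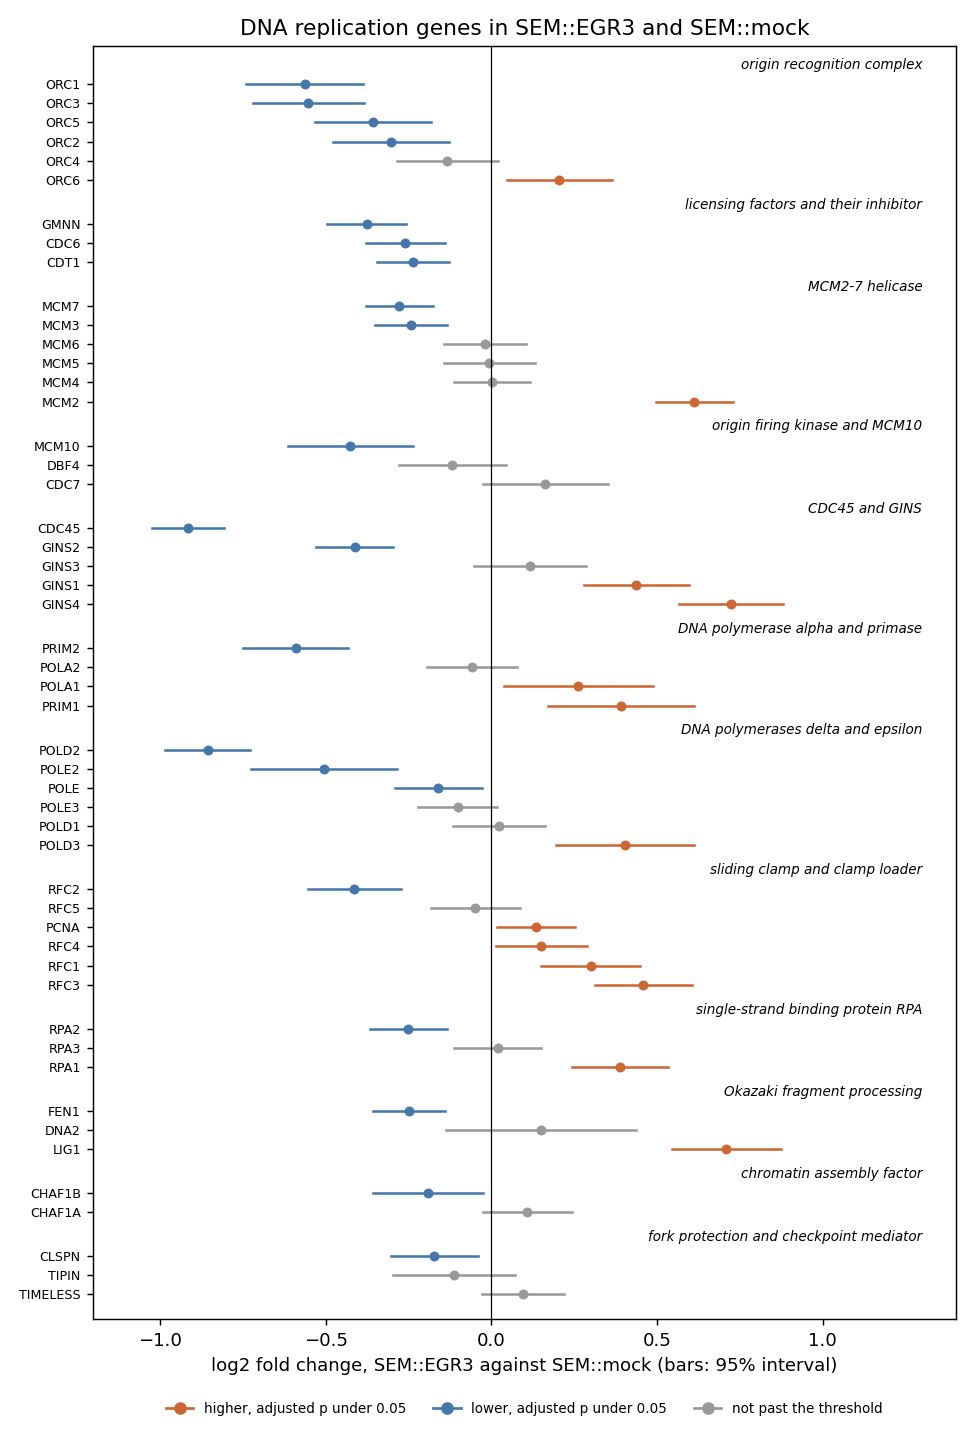
Log2 fold change of each of the 50 replication genes, SEM::EGR3 against SEM::mock (x axis, n = 3 libraries each), with bars for the 95% interval and genes grouped by role (y axis). Most role groups hold points on both sides of 0, CDC45 at -0.91 and GINS4 at 0.72 mark the ends, and no point reaches 1 in either direction.

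Most subunits of ORC, the complex that marks origins, were lower in SEM::EGR3. Of the 6 genes, ORC1, ORC2, ORC3 and ORC5 fell, ORC6 rose and ORC4 did not pass. ORC1, the subunit whose protein comes and goes with the cell cycle, had 57.1, 50.6 and 64.5 CPM in SEM::mock and 38.4, 35.4 and 42.0 CPM in SEM::EGR3. The lines did not overlap, with a log2 fold change of -0.56 ± 0.086 (SE, adjusted p = 2.87e-06). ORC3 had 42.2, 43.4 and 44.5 CPM in SEM::mock against 30.6, 27.3 and 30.1 CPM in SEM::EGR3, a log2 fold change of -0.55 ± 0.081 (SE, adjusted p = 1.70e-06). ORC3 was thus at 67.7% of its SEM::mock mean, and ORC1 at 67.3%. ORC4 had 48.1, 50.1 and 46.5 CPM in SEM::mock and 43.0, 43.1 and 46.1 CPM in SEM::EGR3, and its change of -0.13 (95% interval -0.29 to 0.019, adjusted p = 0.113) did not pass although the libraries did not overlap. ORC6 moved the other way, by 0.21 on the log2 scale (adjusted p = 0.0216). The geometric mean of the 6 subunits was 43.7 to 47.3 CPM in SEM::mock and 35.9 to 38.4 CPM in SEM::EGR3.

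The licensing factors fell together with their inhibitor. GMNN codes for geminin, which binds CDT1 and stops a second loading of the helicase, and it had 122, 116 and 119 CPM in SEM::mock and 92.3, 90.9 and 91.8 CPM in SEM::EGR3. Its libraries lay apart, with a log2 fold change of -0.38 ± 0.058 (SE, adjusted p = 3.24e-06). CDC6, the ATPase that recruits the helicase to ORC, had 123, 119 and 124 CPM in SEM::mock and 102, 104 and 99.7 CPM in SEM::EGR3, a log2 fold change of -0.26 ± 0.057 (SE, adjusted p = 3.04e-04). CDT1, which brings in the helicase, had 318, 309 and 294 CPM in SEM::mock and 262, 269 and 252 CPM in SEM::EGR3, a log2 fold change of -0.24 ± 0.053 (SE, adjusted p = 3.78e-04). All 3 genes were at 77.0% to 85.0% of their SEM::mock mean, and for none of them did the libraries overlap.

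The 6 subunits of the MCM2-7 ring, which occur once each in the helicase, did not move together. MCM2 rose, MCM3 and MCM7 fell, and MCM4, MCM5 and MCM6 did not pass. MCM2 had 125, 120.1 and 116 CPM in SEM::mock and 184, 188 and 181 CPM in SEM::EGR3. Every SEM::EGR3 library was above every SEM::mock library, at 153% of the control mean, with a log2 fold change of 0.61 ± 0.056 (SE, adjusted p = 6.01e-10). MCM7 had 543, 533 and 542 CPM in SEM::mock and 450.1, 453 and 432 CPM in SEM::EGR3, a log2 fold change of -0.28 ± 0.049 (SE, adjusted p = 2.38e-05). MCM3 had 344, 324 and 318 CPM in SEM::mock and 269.7, 283 and 281 CPM in SEM::EGR3, a log2 fold change of -0.24 ± 0.053 (SE, adjusted p = 2.54e-04). MCM3 and MCM7 fell without overlap of the lines. MCM4 had 281, 302 and 305 CPM in SEM::mock and 311, 280.2 and 296 CPM in SEM::EGR3, a log2 fold change of 0.0018 (95% interval -0.11 to 0.12). MCM5 had 96.0, 111 and 104 and then 110.0, 95.4 and 103 CPM, a log2 fold change of -0.0056 (95% interval -0.14 to 0.13). MCM6 had 129.9, 138 and 144 and then 137, 127 and 141 CPM, a log2 fold change of -0.018 (95% interval -0.14 to 0.11). In these 3 genes the libraries of the lines overlapped, and the intervals leave room for changes of up to 0.14 on the log2 scale. The geometric mean of the 6 subunits was 208 to 214 CPM in SEM::mock and 208 to 217 CPM in SEM::EGR3 and the ranges overlapped.

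Largest among the falls was that of CDC45, which binds MCM2-7 together with GINS to form the active helicase. CDC45 had 307, 292 and 298 CPM in SEM::mock and 159, 156 and 161 CPM in SEM::EGR3, 53.0% of the control mean, with a log2 fold change of -0.91 ± 0.053 (SE, adjusted p = 8.69e-14). The gene lies on GRCh38 at chr22:19479459-19520612, on the plus strand, and no other annotated gene overlaps it. GINS4, a subunit of the 4-part GINS ring, had 35.5, 34.8 and 32.2 CPM in SEM::mock and 58.4, 56.2 and 54.4 CPM in SEM::EGR3, a log2 fold change of 0.72 ± 0.077 (SE, adjusted p = 8.46e-09). Its libraries did not overlap either, in the other direction. GINS1 rose by 0.44 (adjusted p = 2.10e-05) and GINS2 fell by 0.41 (adjusted p = 5.41e-07) on the log2 scale, so that partners in one stable complex changed in opposite directions. GINS3 had 32.5, 32.7 and 34.5 CPM in SEM::mock and 35.4, 35.2 and 37.5 CPM in SEM::EGR3. Its libraries did not overlap, but the log2 fold change of 0.12 (95% interval -0.052 to 0.29, adjusted p = 0.212) did not pass.

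**Figure D2:**
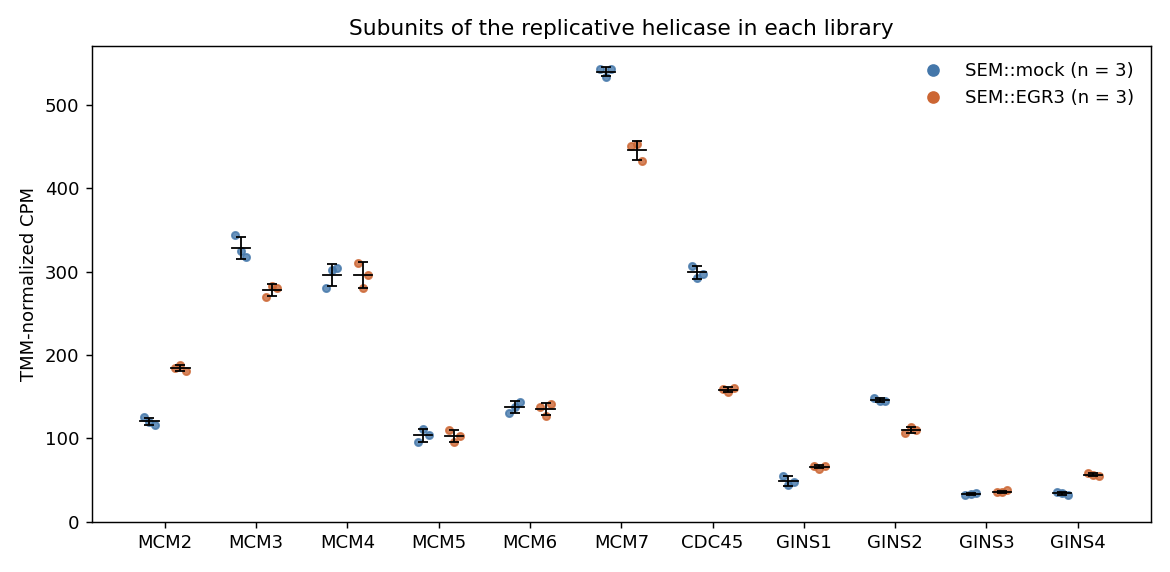
Level of the MCM2-7, CDC45 and GINS genes in each library (y axis, TMM-normalized CPM on a linear scale from 0). Points are libraries, the horizontal lines and bars give mean and SD of 3 libraries, MCM2 and GINS4 lie higher and CDC45, MCM7 and GINS2 lower in SEM::EGR3, and the points of MCM4, MCM5 and MCM6 overlap.

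Among the genes that fire origins, MCM10 fell and both kinase subunits did not pass. MCM10, a factor that helps to activate the loaded helicase, had 54.6, 54.9 and 60.0 CPM in SEM::mock and 36.2, 42.7 and 49.0 CPM in SEM::EGR3, a log2 fold change of -0.43 ± 0.091 (SE, adjusted p = 2.20e-04). The libraries did not overlap, but SEM::EGR3 replicate 3 came close to SEM::mock. DBF4, the activating subunit of the CDC7 kinase, had 52.8, 51.9 and 55.5 CPM in SEM::mock and 50.7, 43.1 and 52.7 CPM in SEM::EGR3, with a log2 fold change of -0.12 (95% interval -0.28 to 0.045, adjusted p = 0.19). CDC7 had a log2 fold change of 0.16 (95% interval -0.026 to 0.35, adjusted p = 0.119).

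DNA polymerase alpha starts each new strand with a primer made by its primase, and the 2 primase subunits moved apart. PRIM2, the large regulatory subunit, had 50.9, 56.4 and 52.0 CPM in SEM::mock and 34.2, 34.9 and 37.2 CPM in SEM::EGR3, a log2 fold change of -0.59 ± 0.077 (SE, adjusted p = 2.53e-07). PRIM1, the catalytic subunit, had 17.5, 20.1 and 23.3 CPM in SEM::mock and 26.8, 24.7 and 27.9 CPM in SEM::EGR3, a log2 fold change of 0.39 ± 0.11 (SE, adjusted p = 0.00223). In neither gene did the lines overlap. The last 500 bases of PRIM1 hold 2 other genes of the same strand, NACA and AC117378.1, so that its reads could be shared with them. POLA2, the second subunit of the polymerase, had 83.8, 77.6 and 80.8 CPM in SEM::mock and 72.6, 81.6 and 79.6 CPM in SEM::EGR3, which overlapped (log2 fold change -0.058, 95% interval -0.19 to 0.079). The catalytic POLA1 passed with 0.26 (adjusted p = 0.0366) although its libraries overlapped.

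Of 6 subunits of the polymerases delta and epsilon, which copy the lagging and the leading strand, 3 fell, 1 rose and 2 did not pass. POLD2, the second subunit of polymerase delta, had 196, 178 and 188 CPM in SEM::mock and 99.6, 114 and 98.8 CPM in SEM::EGR3, 55.5% of the control mean, with a log2 fold change of -0.86 ± 0.062 (SE, adjusted p = 8.38e-12). It lies on GRCh38 at chr7:44114681-44124358, on the minus strand. The catalytic subunit POLD1 had 116, 104 and 98.6 CPM in SEM::mock and 102, 116 and 108 CPM in SEM::EGR3. These libraries overlapped, with a log2 fold change of 0.023 (95% interval -0.11 to 0.16), while the accessory subunit POLD3 rose by 0.40 (adjusted p = 0.00104). POLE2, the second subunit of polymerase epsilon, had 25.4, 23.3 and 22.0 CPM in SEM::mock and 15.8, 16.3 and 18.1 CPM in SEM::EGR3, a log2 fold change of -0.50 ± 0.11 (SE, adjusted p = 1.90e-04). Its catalytic partner POLE fell by 0.16 on the log2 scale (adjusted p = 0.031), and POLE3, a histone fold subunit, had a log2 fold change of -0.10 (adjusted p = 0.12). The geometric mean of the 6 genes was 69.4 to 72.1 CPM in SEM::mock and 60.0 to 62.7 CPM in SEM::EGR3.

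The clamp and 3 of 5 clamp loader genes were higher in SEM::EGR3. PCNA, the ring that slides along DNA behind the fork, had 265, 229 and 248 CPM in SEM::mock and 271, 267 and 275 CPM in SEM::EGR3. The lines did not overlap, but SEM::mock replicate 1 lay close below SEM::EGR3, and a log2 fold change of 0.13 ± 0.057 (SE, adjusted p = 0.0396) was the smallest change that passed. RFC3 had 44.0, 47.2 and 50.4 CPM in SEM::mock and 64.7, 64.5 and 65.1 CPM in SEM::EGR3, a log2 fold change of 0.46 ± 0.071 (SE, adjusted p = 3.48e-06). RFC2, another small subunit, went the other way, from 172, 165 and 146 CPM to 111, 122 and 132 CPM, a log2 fold change of -0.41 ± 0.068 (SE, adjusted p = 8.27e-06). RFC1, the large subunit, rose by 0.30 (adjusted p = 7.85e-04), and RFC4 by 0.15 (adjusted p = 0.0457), with overlapping libraries for RFC4. RFC5 had 83.6, 77.9 and 73.7 CPM in SEM::mock and 75.1, 76.0 and 76.8 CPM in SEM::EGR3, which overlapped (log2 fold change -0.048, 95% interval -0.18 to 0.086).

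RPA, the trimer that covers single strands, had 1 subunit gene in each class. RPA1, the largest subunit, had 98.3, 125 and 108 CPM in SEM::mock and 148, 136 and 149 CPM in SEM::EGR3, a log2 fold change of 0.39 ± 0.07 (SE, adjusted p = 2.75e-05). RPA2, which checkpoint kinases phosphorylate, had 287, 255 and 259.8 CPM in SEM::mock and 218, 232 and 224 CPM in SEM::EGR3, a log2 fold change of -0.25 ± 0.056 (SE, adjusted p = 3.62e-04). Neither gene overlapped between the lines. RPA3 had 126, 119 and 119.8 CPM in SEM::mock and 126, 132 and 112 CPM in SEM::EGR3, with overlap and a log2 fold change of 0.02 (95% interval -0.11 to 0.15).

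Okazaki fragments are trimmed by FEN1 and DNA2 and sealed by DNA ligase 1, the product of LIG1. LIG1 had 52.3, 46.4 and 40.6 CPM in SEM::mock and 71.7, 78.9 and 78.8 CPM in SEM::EGR3. The SEM::EGR3 libraries were at 165% of the control mean, without overlap, with a log2 fold change of 0.71 ± 0.08 (SE, adjusted p = 2.28e-08). FEN1 had 233, 225 and 231 CPM in SEM::mock and 193, 197 and 190.3 CPM in SEM::EGR3, a log2 fold change of -0.25 ± 0.052 (SE, adjusted p = 1.85e-04). The end of FEN1 lies within FADS2, a gene of the same strand. DNA2 had 13.1, 9.71 and 13.1 CPM in SEM::mock and 13.2, 12.0 and 14.3 CPM in SEM::EGR3, and its interval was the widest of the members (log2 fold change 0.15, 95% interval -0.14 to 0.44).

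Behind the fork, chromatin assembly factor 1 places histones on the new DNA. CHAF1B, its middle subunit, had 42.2, 38.0 and 40.0 CPM in SEM::mock and 35.7, 33.1 and 36.0 CPM in SEM::EGR3, a log2 fold change of -0.19 ± 0.08 (SE, adjusted p = 0.0385). CHAF1A, the large subunit, had 113, 102 and 100.4 CPM in SEM::mock and 106, 119 and 116 CPM in SEM::EGR3, which overlapped (log2 fold change 0.11, 95% interval -0.024 to 0.24). CLSPN codes for claspin, which links the stalled fork to the kinase CHEK1. It had 91.0, 90.3 and 82.2 CPM in SEM::mock and 77.4, 76.6 and 80.2 CPM in SEM::EGR3, a log2 fold change of -0.17 ± 0.063 (SE, adjusted p = 0.0197). TIPIN, the partner of TIMELESS in fork protection, had 32.5, 28.5 and 29.8 CPM in SEM::mock and 27.2, 28.2 and 29.0 CPM in SEM::EGR3, a log2 fold change of -0.11 (95% interval -0.30 to 0.072). TIMELESS did not pass at 0.097 (adjusted p = 0.157), although its libraries did not overlap.

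Of the 34 calls, 27 (9 higher and 18 lower) passed in each of 13 other fits, and 7 did not. DESeq2 called 27 members at an adjusted p under 0.05, and 60.7% of all genes tested. Each of the 7 was also lost without at least 1 library, and all had an absolute log2 fold change under 0.3. ORC6 was lost without SEM::mock replicate 2 (0.12, adjusted p = 0.204) or SEM::EGR3 replicate 1 (0.14, adjusted p = 0.156). PCNA was lost without SEM::mock replicate 2 (0.067, adjusted p = 0.345), SEM::mock replicate 3 (0.12, adjusted p = 0.113), SEM::EGR3 replicate 1 (0.14, adjusted p = 0.0709) and SEM::EGR3 replicate 3 (0.13, adjusted p = 0.104). RFC4 was lost without SEM::mock replicates 2 (0.10, adjusted p = 0.231) or 3 (0.11, adjusted p = 0.219), and without SEM::EGR3 replicates 2 (0.13, adjusted p = 0.105) or 3 (0.11, adjusted p = 0.186). POLA1 was lost without SEM::mock replicates 1 (0.17, adjusted p = 0.234) or 2 (0.26, adjusted p = 0.0766), and without SEM::EGR3 replicates 1 (0.22, adjusted p = 0.133) or 3 (0.25, adjusted p = 0.0794). For CLSPN these were SEM::mock replicate 2 (-0.16, adjusted p = 0.0513) and SEM::EGR3 replicate 1 (-0.16, adjusted p = 0.0666). POLE was lost without any library but SEM::mock replicate 1 (-0.17 to -0.14, adjusted p up to 0.104), and CHAF1B without any but SEM::mock replicate 2 (-0.21 to -0.16, adjusted p up to 0.110). Against a fold of 1.2 rather than 0, glmTreat called 16 members, 6 higher and 10 lower, and 51.3% of all genes tested.

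Ratios between subunits within a library do not depend on how libraries were scaled. For 4 complexes with all core subunits among the members (ORC1-6, MCM2-7, GINS1-4, RFC1-5), each subunit was set against the geometric mean of its complex in the same library. Of 21 subunits, 13 had a share that did not overlap between the lines, 6 higher and 7 lower in SEM::EGR3. For levels, which are a different measure, 70.1% of all genes tested did not overlap, so the number alone is no result about these complexes. Shares within a complex are tied to each other, since a higher share of one lowers the rest, so they are given without a test. On the log2 scale MCM2 was 0.81 ± 0.068 (SD, n = 3) below the mean of its complex in SEM::mock and 0.21 ± 0.050 below it in SEM::EGR3. MCM7 was 1.35 ± 0.033 above it in SEM::mock and 1.06 ± 0.053 in SEM::EGR3. The spread between these subunits therefore narrowed in SEM::EGR3, as it did for GINS2 (from 1.46 to 0.83 above) and GINS4 (from 0.64 to 0.14 below). RFC2 (from 0.91 to 0.41 above) and RFC3 (from 0.86 to 0.49 below) also drew closer. In contrast, ORC6 (from 0.20 to 0.68 above) and ORC1 (from 0.33 to 0.049 above) drew apart.

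Pairs named after their values were seen show the size of these shifts. The ratio of MCM2 to MCM7 was 0.230, 0.225 and 0.215 in SEM::mock and 0.409, 0.414 and 0.419 in SEM::EGR3, a log2 difference of 0.89 (SD 0.039). The ratio of GINS4 to GINS2 was 0.239, 0.240 and 0.222 in SEM::mock and 0.547, 0.493 and 0.497 in SEM::EGR3, a log2 difference of 1.13 (SD 0.074). Since the 2 genes of each pair moved in opposite directions, the difference of their ratio adds up both changes. For POLD3 to POLD2 the ratio was 0.095, 0.099 and 0.101 in SEM::mock and 0.249, 0.203 and 0.249 in SEM::EGR3, a log2 difference of 1.25 (SD 0.13). For PRIM1 to PRIM2 it was 0.344, 0.356 and 0.449 and 0.783, 0.707 and 0.748, a log2 difference of 0.97 (SD 0.16). No ratio of these pairs overlapped between the lines. This was fixed by their choice, since the 2 genes of each pair had moved in opposite directions without overlap.

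**Figure D3:**
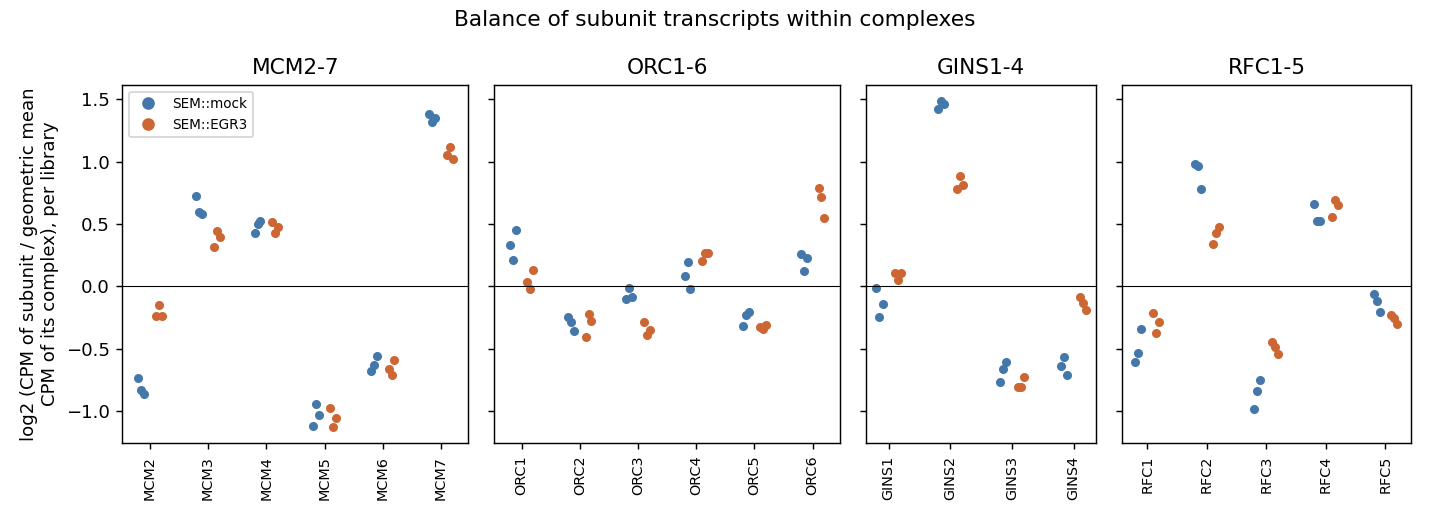
Log2 ratio of each subunit to the geometric mean of its complex (y axis) in each library, for MCM2-7, ORC1-6, GINS1-4 and RFC1-5 (x axis, subunits). Points are libraries, the line at 0 is the mean of the complex, and 13 of the 21 subunits have lines that do not overlap, with MCM2, ORC6, GINS4 and RFC3 shifted up and MCM7, GINS2 and RFC2 shifted down in SEM::EGR3. By level, 70.1% of all genes tested did not overlap.

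Other genes of the pathway were read from 5 lists, 92 genes in all. Of these 90 were tested and 64 passed, 40 higher and 24 lower (45 and 16 without normalization factors). Of all genes tested 68.5% passed, 36.5% higher and 32.0% lower. Among 37 other replication factors 36 were tested, 14 rose and 7 fell. UHRF1, which reads hemimethylated DNA and recruits DNMT1 behind the fork, had 12.2, 15.2 and 12.4 CPM in SEM::mock and 53.5, 42.4 and 56.0 CPM in SEM::EGR3, a log2 fold change of 1.94 ± 0.12 (SE, adjusted p = 2.36e-13). CHTF18, which forms a second clamp loader with the small RFC subunits, had 32.2, 28.6 and 29.0 CPM in SEM::mock and 70.8, 73.5 and 70.6 CPM in SEM::EGR3, a log2 fold change of 1.26 ± 0.076 (SE, adjusted p = 2.10e-13). Both rose by more than any of the 50 members. NASP, a histone chaperone, fell by 0.55 on the log2 scale (adjusted p = 5.28e-09). POLD4, the smallest subunit of polymerase delta, had a log2 fold change of -0.87 (adjusted p = 0.0392) at 0.774 to 3.00 CPM, with overlapping libraries, and it was lost without SEM::mock replicate 1 (-0.60, adjusted p = 0.247), SEM::mock replicate 2 (-0.83, adjusted p = 0.111) or SEM::EGR3 replicate 1 (-0.48, adjusted p = 0.282). CHTF8 did not enter the test.

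Of 6 genes that supply deoxynucleotides 4 rose and 0 fell, in edgeR at an adjusted p under 0.05 as at an unadjusted one. TYMS, the thymidylate synthase, had 329.7, 314 and 330.0 CPM in SEM::mock and 409.7, 412 and 422 CPM in SEM::EGR3, a log2 fold change of 0.35 ± 0.051 (SE, adjusted p = 1.20e-06). DUT, which removes dUTP, rose by 0.26 (adjusted p = 2.36e-04). Of 8 fork checkpoint genes 5 fell and 2 rose, and DESeq2 called 4. Over all genes tested, edgeR called 36.5% higher and 32.0% lower. RAD1 and HUS1, subunits of the checkpoint clamp, fell by 0.51 (adjusted p = 2.65e-07) and 0.44 (adjusted p = 0.0185) on the log2 scale, while RAD9A, the third subunit of that clamp, rose by 0.31 (adjusted p = 0.0301). ETAA1, an activator of the kinase ATR, rose by 0.71 (adjusted p = 1.42e-04). HUS1 was lost without SEM::EGR3 replicate 1 (-0.33, adjusted p = 0.116). RAD9A was lost without SEM::mock replicate 2 (0.17, adjusted p = 0.261), SEM::mock replicate 3 (0.28, adjusted p = 0.0839), SEM::EGR3 replicate 2 (0.26, adjusted p = 0.0736) or SEM::EGR3 replicate 3 (0.25, adjusted p = 0.0990).

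Of 31 genes for entry into S phase, 30 were tested, 14 rose and 10 fell, where 36.5% of all genes tested rose and 32.0% fell. CDKN2A, which codes for the CDK4 and CDK6 inhibitor p16, was not counted once in SEM::mock (0 counts per library) but had 2356, 1127 and 1357 counts in SEM::EGR3, at least 280-fold higher when SEM::mock is set to the floor of 3 counts per library. The lack of reads in SEM::mock was shared by genes beside CDKN2A on chromosome 9. CDKN2B had 0 counts in every SEM::mock library and 9, 4 and 5 in SEM::EGR3, and MTAP had 0, 0 and 1 against 380, 182 and 214. Whether this locus is present in SEM::mock was not tested. CDKN2C, an inhibitor of the same family as CDKN2A, had 30.7, 47.6 and 41.8 CPM in SEM::mock and 157, 136 and 152 CPM in SEM::EGR3, a log2 fold change of 1.89 ± 0.094 (SE, adjusted p = 4.37e-15). CCND1, the cyclin D1 partner of both kinases, had 121, 130.3 and 129 CPM in SEM::mock and 30.8, 31.9 and 30.5 CPM in SEM::EGR3, a log2 fold change of -2.03 ± 0.066 (SE, adjusted p = 1.08e-18). CDKN2A, CDKN2C and CCND1 are ends of their list and moved by more than any of the 50 members. Over the list's 30 tested genes the median absolute log2 fold change was 0.42, against 0.46 over all genes tested and 0.25 for the members. CDKN1C, a broad inhibitor of cyclin-dependent kinases, fell by 1.16 (adjusted p = 1.48e-12). Of 10 genes for mitosis 6 rose and 2 fell. AURKB and CDC20, which act at chromosome segregation, rose by 0.71 (adjusted p = 1.15e-09) and 0.67 (adjusted p = 4.04e-10), and the kinases BUB1 and PLK1 fell by 0.67 (adjusted p = 3.27e-10) and 0.17 (adjusted p = 0.00937) on the log2 scale.

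Promoter windows were read from RefSeq (GRCh38.p14), from 250 bases before to 50 after each annotated start, and held 43 of the 50 members. DNA2, GINS4, MCM4, MCM5, POLD3, RPA2 and RPA3 were not matched. Letters of 4 E2F motifs (TTTCCCGC, TTTGGCGC, TTTCGCGC, TTTGCCGC, either strand) were found for 21 of the 43 members (48.8%), for 6.74% of 10342 tested genes with a window and for 3.99% of all 27305 genes with one. Of the 21 members with E2F letters, 6 rose, 10 fell and 5 did not pass, and of the 22 without, 5 rose, 10 fell and 7 did not pass. The groups with and without the letters thus held rises and falls in like numbers, with median log2 fold changes of -0.11 and -0.13. Of the 8 genes E2F1 to E2F8, counted after their values were seen, 4 rose, 1 fell and 3 did not pass.

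CCAAT, the box bound by NF-Y, was found for 25 members (58.1%) and for 43.1% of tested genes, and TTTGAA, the core of the cell cycle element CHR, for 2 members (4.65%) and 13.6%. No motif searched contains another. The EGR motifs GCGTGGGCG or GCGGGGGCG were found for 5 members (CHAF1B, LIG1, ORC4, POLD1 and RFC1, 11.6%) and for 12.3% of tested genes. LIG1 and RFC1 of these rose, CHAF1B fell, and ORC4 and POLD1 did not pass. The shares for EGR letters are close in members and tested genes.

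Windows of 7 members are shown upstream of the start, 5′ to 3′ on the gene's strand, because they include the largest rise with a window (LIG1), both largest falls (CDC45, POLD2), and members that fell (MCM7, GINS2, GMNN) or rose (PCNA) with E2F letters. Capitals mark E2F letters, CCAAT or ATTGG, and in LIG1 also CGCCCCCGC, the reverse complement of an EGR motif. In CDC45 and POLD2 the capitals are CCAAT boxes, with no E2F letters of those searched. CDC45 has a second annotated start, also without E2F letters of those searched. Near matches were not counted, such as tttggcgg in the CDC45 window shown, which differs from TTTGGCGC in its last base. A match is a description of letters and not of binding.
LIG1 (chr19:48170345-48170474, minus strand): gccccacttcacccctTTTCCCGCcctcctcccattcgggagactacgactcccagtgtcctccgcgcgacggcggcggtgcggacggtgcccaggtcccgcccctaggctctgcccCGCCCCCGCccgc
CDC45 (chr22:19479820-19479919, plus strand): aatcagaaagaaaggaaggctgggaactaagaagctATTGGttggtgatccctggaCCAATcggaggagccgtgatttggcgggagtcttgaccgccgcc
POLD2 (chr7:44123565-44123664, minus strand): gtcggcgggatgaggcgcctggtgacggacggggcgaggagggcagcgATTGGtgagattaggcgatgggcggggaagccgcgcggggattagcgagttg
MCM7 (chr7:100101398-100101497, minus strand): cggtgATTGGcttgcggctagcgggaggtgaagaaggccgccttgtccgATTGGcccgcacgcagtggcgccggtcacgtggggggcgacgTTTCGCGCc
GINS2 (chr16:85688955-85689054, minus strand): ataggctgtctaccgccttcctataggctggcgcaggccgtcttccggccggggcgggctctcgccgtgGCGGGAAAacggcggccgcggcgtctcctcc
GMNN (chr6:24775287-24775386, plus strand): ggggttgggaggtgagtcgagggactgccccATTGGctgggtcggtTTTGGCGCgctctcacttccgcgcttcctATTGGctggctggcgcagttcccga
PCNA (chr20:5126628-5126727, minus strand): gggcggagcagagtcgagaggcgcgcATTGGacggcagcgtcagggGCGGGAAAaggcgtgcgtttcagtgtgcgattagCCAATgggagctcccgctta

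**Figure D4:**
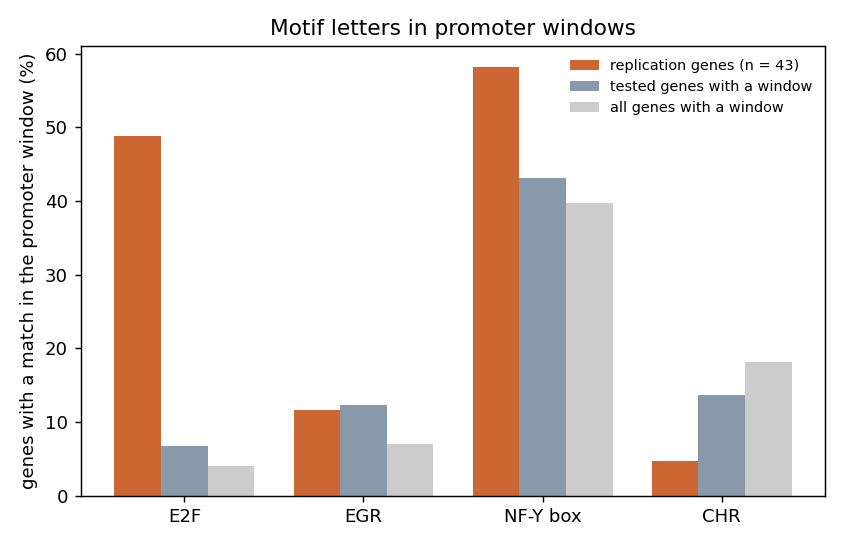
Share of genes (y axis, percent) whose promoter window holds letters of the E2F, EGR, NF-Y box or CHR motifs (x axis), for the replication genes (n = 43), for tested genes and for all genes with a window. The bar for E2F is 48.8% in the replication genes against 6.74% and 3.99%, and the bars for EGR are 11.6% in the replication genes and 12.3% in tested genes.

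The members lie on 21 chromosomes. For each, the median log2 fold change of the tested genes within 1 Mb was taken, a description made after values had been seen. CDC45 had 35 such neighbours with a median of -0.48, 25 of them below 0, where the median of chromosome 22 was 0.12. GINS1 on chromosome 20 had 11 neighbours with a median of 1.03, 1 of them below 0, where the chromosome's median was 0.13. MCM2 rose while its 12 neighbours had a median of -0.24, and LIG1 rose with a median of 0.12 over 47 neighbours. POLD2 had a median of -0.13 over 26 neighbours. Across the 48 members with at least 5 neighbours, Pearson's r was 0.38 and Spearman's rho 0.33, over points that share the same 6 libraries, and r was 0.24 without the 2 members farthest from the median.

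**Figure D5:**
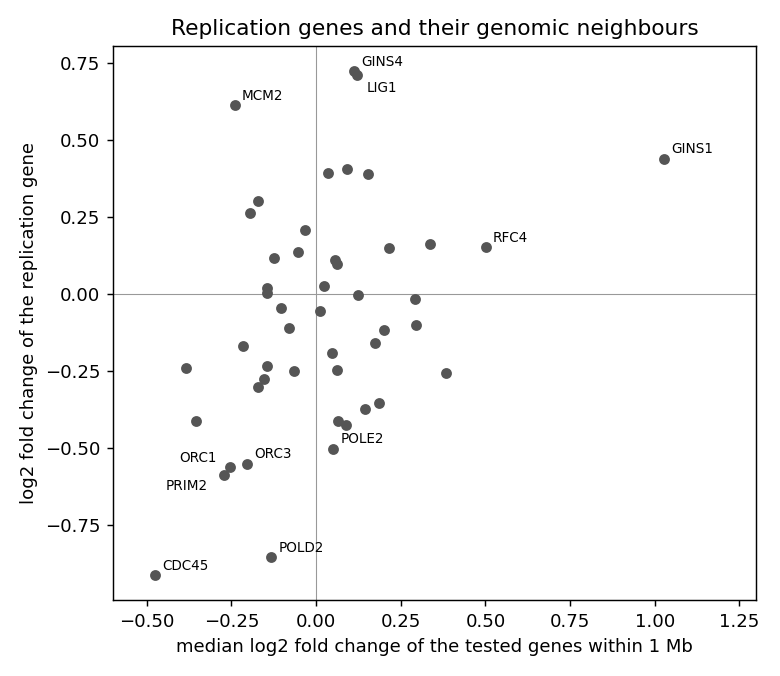
Log2 fold change of each replication gene (y axis) against the median log2 fold change of the tested genes within 1 Mb (x axis), SEM::EGR3 against SEM::mock, for the 48 members with at least 5 neighbours. CDC45 lies low with neighbours at -0.48 and GINS1 high with neighbours at 1.03, while MCM2 and its neighbours lie on opposite sides of 0.

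By annotation, 11 members have another gene over their last 500 bases, where MACE-Seq reads fall. In 4 of them (POLA2, PRIM1, POLD1, FEN1) it is on the same strand. For 7 more (ORC4, MCM2, GINS2, GINS4, RFC4, RFC5, CHAF1A) it is on the opposite strand, and whether strand was used in counting is not given in the sources used here, so reads of these genes may not be told apart from their partners.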

How the data were processed

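RNA of 3 libraries of SEM::mock and 3 of SEM::EGR3 was sequenced by MACE-Seq, and the labels name them biological replicates, so p-values measure the spread between these. The authors deposited 1 table of whole counts per gene and library, without normalization. The authors deposited the same counts scaled to CPM (under the name TPM, without a length term) and as a size-factor normalized signal, neither of which was used for tests. Columns of the authors' own DESeq2 comparison (log2 fold changes with p-values and their adjusted form) were not used. The column headings spell the gene ERG3 and were read as the EGR3 line, since the labels name no other. The submitters' processing notes name bcl2fastq, Bowtie2, HTSeq and GRCh38, and annotation and strand setting are not given in the sources used here.

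Tests were run with edgeR 4.0.16 under R 4.3.3 (filterByExpr, TMM, glmQLFit, glmQLFTest) over all 6 libraries with no further term, with Benjamini-Hochberg adjustment over 15465 genes. The procedure was tested on simulated data. CPM values in the text are counts scaled with TMM factors and carry no length term. Sums, geometric means and subunit ratios combine CPM of different genes. The floor of 3 counts per library was a fixed setting and was not estimated from the data. Replicates differed by more than sampling noise (chi-square per gene 1.71 to 3.32). MCM2 to MCM7 and PCNA are given in every library, and so are, per role group, the 2 members with the largest change past the threshold and the 1 with the highest adjusted p. In the other lists the 2 highest and 2 lowest that passed are named. Members and lists were chosen with earlier results of these data known. Positions come from GENCODE release 29, which holds 97.0% of the gene identifiers. Alternatives were DESeq2 1.42.0, its size factors in edgeR, no or upper-quartile factors, a filter of 10 counts per library or none, a replicate block, leaving out each library, and minimum fold changes.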

Additional observations from a re-analysis of the deposited data

How the results depend on the processing

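The number of members called stayed within 1.5 times of 34 in each of 13 other fits, from 27 with DESeq2 to 35 (17 higher, 18 lower) without normalization factors, and was 28 to 33 when 1 library was left out (9 to 12 higher, 18 to 21 lower). It moved with a minimum size of change: 16 members (6 higher, 10 lower) passed against a fold of 1.2 and 9 (3 higher, 6 lower) with a log2 change of 0.5 or more either way, since fewer members reach these sizes. The filter of at least 10 counts in every library removed EGR3 itself, and that fit gives no value for it. Without 1 library the log2 fold change of EGR3 was 8.66 to 8.91. The replicate numbers did not pair the libraries, as the deviations of same-numbered libraries correlated at -0.25, -0.18 and -0.076, and with the replicate number as a block 29 members passed (10 higher, 19 lower). Directions turned only in members that did not pass: without normalization factors MCM5 0.073, MCM6 0.060, POLA2 0.020 and RFC5 0.030, with upper-quartile factors MCM5 0.0097, without a filter MCM4 -0.00056, and with at least 10 counts MCM5 0.045, MCM6 0.032 and RFC5 0.0029. Leaving out 1 library gave ranges that cross 0 for MCM4 (-0.052 to 0.041), MCM5 (-0.075 to 0.044), MCM6 (-0.074 to 0.023), POLA2 (-0.10 to 0.0021), POLD1 (-0.041 to 0.075), RPA3 (-0.023 to 0.083) and DNA2 (-0.0013 to 0.21). The causes were not tested. Of the 16 members that did not pass, 5 passed in at least 1 other fit and 11 in none. No normalization factors moved the median of all genes from 0.030 to 0.11. The lower depth of SEM::mock limits the precision of members with few counts, such as DNA2.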
